A study of Mus musculus with 10 samples.

Results

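The 10 LNCaP xenograft tumour libraries of the series fell into 2 sets by their level of hypoxia transcripts, and this account describes what else differed between those sets. The hypoxia-high set held 6 of the 10 libraries, control replicates 3 and 4 and IL-15 replicates 2, 3, 4 and 5. The hypoxia-low set held 4 of 10, control replicates 1, 2 and 5 and IL-15 replicate 1. A library was placed by its hypoxia score, the mean log2 CPM of 26 canonical hypoxia genes that included P4HA1, P4HA2, PGK1 and CA9. CPM are counts per 1e+06 counts, scaled by TMM. The sets were thus defined from the same RNA that is described here, and the study itself did not assign tumours to them. Values of the 26 score genes are given as a description and were not tested. Oxygen was not measured in the data used here, so the names of both sets refer to transcripts.

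All tumours were grown from the human prostate cancer line LNCaP (written LnCAP in the labels), which is androgen-sensitive. Mice of the NOD.Cg-Prkdcscid Il2rgtm1Wjl/SzJ genotype, known as NSG, lack T, B and NK cells of their own, and each was given 3000000 cells under the skin with matrigel. All mice then received 4 weekly intraperitoneal injections of sip-T, a product of cultured human blood cells (5000000 cells in 100 µl of PBS), as control sip-T in 5 libraries and together with 1 µg of recombinant human IL-15 in the other 5. Tumours were collected on day 7 after the last injection. Whether sip-T was itself exposed to IL-15, as the series text also says, or IL-15 was only injected cannot be told apart here. No label says that the tumours of a group came from separate mice, so p-values below measure the spread between these libraries only.

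Cells sense oxygen through the hypoxia-inducible factors (HIFs), transcription factors made of an oxygen-labile alpha subunit, HIF-1α or HIF-2α, and the stable partner ARNT. With oxygen present, prolyl hydroxylases of the EGLN family mark the alpha subunit for destruction by the VHL ubiquitin ligase, and FIH, the product of HIF1AN, blocks its activation domain. When oxygen falls, the stabilised factors raise genes of glucose uptake, glycolysis, angiogenesis, collagen hydroxylation, pH control and mitophagy, and also EGLN1 and EGLN3, which feed back on the pathway. In solid tumours this programme marks poorly perfused regions.

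Total counts, in units of 1e+06, lay between 13.6 and 15.2 in the hypoxia-low set and between 13.6 and 19.3 in the hypoxia-high set, and 3 counts corresponded to 0.155 to 0.221 CPM before scaling. All 11 LNCaP and prostate markers passed the low-count filter, with KLK3, which encodes prostate-specific antigen, at 5122 ± 1304 CPM in the hypoxia-high and 5187 ± 1273 CPM in the hypoxia-low set (SD, n = 6 and 4). Mitochondrially encoded transcripts took 5.84 to 7.95% of counts in hypoxia-high and 5.89 to 7.76% in hypoxia-low libraries. Genes other than protein-coding ones took 4.07 to 5.13% and 4.22 to 5.15%. The first 3 principal components of the 500 most variable genes outside the score held 34.8, 19.5 and 12.01% of the variance. Their signs were set to rise with the score. The sets overlapped on each, but on the third only through IL-15 replicate 1, at 9.49. There the hypoxia-low control libraries lay at -19.8 to -11.9 and the hypoxia-high set at -1.13 to 18.1. Control replicate 3 had the highest value on the first component and on the third. Treatment and set were not balanced, because 2 of 5 control and 4 of 5 IL-15 libraries were hypoxia-high. Treatment was therefore a covariate in the fitted differences, except in the alternatives named as being without it or in control libraries alone. CPM values, their overlap between the sets, marker sums and principal components were not adjusted for treatment.

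**Figure D1:**
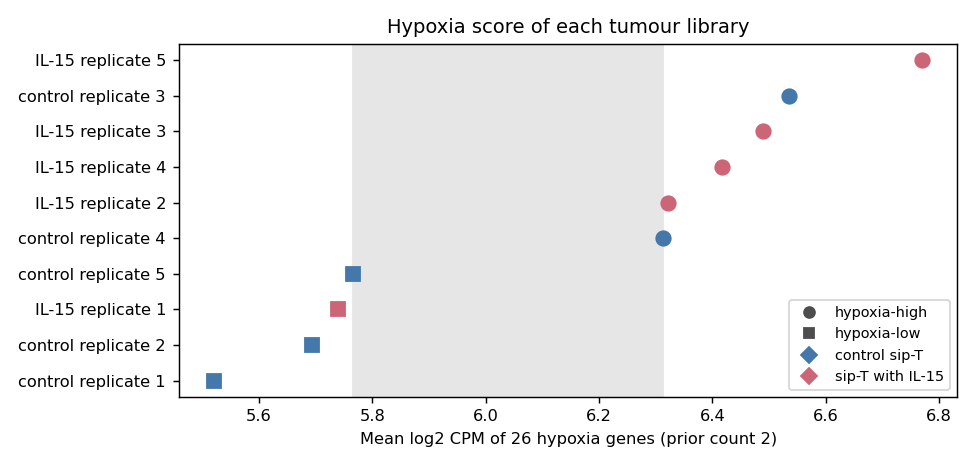
Hypoxia score of each tumour library, as the mean log2 CPM of 26 hypoxia genes (prior count 2), with libraries on the vertical axis ordered by score, circles for hypoxia-high and squares for hypoxia-low. The grey band is the gap from 5.77 to 6.31, and both treatments appear on either side of it.

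The score was 5.52, 5.69 and 5.77 in control replicates 1, 2 and 5 and 5.74 in IL-15 replicate 1. On the other side it was 6.31 and 6.53 in control replicates 4 and 3, and 6.32, 6.42, 6.49 and 6.77 in IL-15 replicates 2, 4, 3 and 5. Control replicate 5 was thus the library just under the gap and control replicate 4 the one just above it. The gap of 0.55 was the largest between neighbouring libraries, the next being 0.24. Over the 4 markers P4HA1, P4HA2, PGK1 and CA9 alone the same 6 libraries were the highest, but the gap between the sets was 0.28 and a larger one, of 0.37, lay elsewhere in the order.

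Among the score genes, 24 of 26 had a higher mean log2 CPM in the hypoxia-high set, and in 15 no hypoxia-low library reached any hypoxia-high one. Counts and differences of these genes follow from the way the sets were made. NDRG1, a stress-induced gene of differentiation, measured 465, 661 and 995 CPM in control replicates 1, 2 and 5 and 734 CPM in IL-15 replicate 1, against a lowest, median and highest value of 1300.2, 1854 and 2261 CPM in the hypoxia-high set. PDK1, a kinase that inhibits pyruvate dehydrogenase, measured 51.5, 83.9 and 88.4 CPM in control replicates 1, 2 and 5 and 87.0 CPM in IL-15 replicate 1, and 121, 195 and 222 CPM in the hypoxia-high set. ERO1A, an oxidase of protein folding in the endoplasmic reticulum, measured 42.0, 49.5 and 74.8 CPM in control replicates 1, 2 and 5 and 47.2 CPM in IL-15 replicate 1, and 102, 122 and 161 CPM in the hypoxia-high set. These 3 genes did not overlap between the sets.

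The feedback hydroxylase EGLN1 had a narrow spread within the hypoxia-high set, at 120.2, 125 and 142 CPM, and stood at 56.4, 84.8 and 75.0 CPM in control replicates 1, 2 and 5 and 58.5 CPM in IL-15 replicate 1. VEGFA, the main angiogenic growth factor, measured 203, 207 and 345 CPM in control replicates 1, 2 and 5 and 381 CPM in IL-15 replicate 1, and 421, 512 and 653 CPM. P4HA1, a subunit of collagen prolyl hydroxylase, measured 81.3, 78.5 and 83.0 CPM in control replicates 1, 2 and 5 and 105 CPM in IL-15 replicate 1, and 129.5, 158 and 183 CPM. In each of these 3 genes every hypoxia-high library stood above every hypoxia-low one.

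Other score genes overlapped. P4HA2, the second such hydroxylase subunit, measured 11.2, 11.6 and 9.48 CPM in control replicates 1, 2 and 5 and 15.8 CPM in IL-15 replicate 1, with IL-15 replicate 2 of the hypoxia-high set below all of them at 8.43 CPM. PGK1, a glycolytic kinase, overlapped through control replicate 5 at 1076 CPM, above the lowest hypoxia-high value of 1052. CA9, the membrane carbonic anhydrase often used as a hypoxia stain, was scarce, at 4.21, 1.62 and 0.784 CPM in control replicates 1, 2 and 5 and 0.962 CPM in IL-15 replicate 1, and 1.80, 4.78 and 13.2 CPM in the hypoxia-high set. LOX, a collagen cross-linking oxidase, did not follow the score. It measured 195, 21.8 and 8.13 CPM in control replicates 1, 2 and 5 and 30.6 CPM in IL-15 replicate 1, and 1.98, 36.9 and 158 CPM in the hypoxia-high set, so that the highest and the lowest value over all libraries were 195 and 1.98 CPM. ANGPTL4, a secreted regulator of lipoprotein lipase, stood at 3.04 ± 0.52 CPM in the hypoxia-high and 3.23 ± 1.25 CPM in the hypoxia-low set (SD, n = 6 and 4).

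Outside the score, 16887 genes passed the filter on low counts and were compared with treatment as covariate. No gene passed edgeR's quasi-likelihood test at a Benjamini-Hochberg adjusted p of 0.05, and the smallest adjusted p was 0.120. At an unadjusted p under 0.05, 1016 genes were higher in the hypoxia-high set, 6.02% of those tested, and 793 were lower, 4.7%. This split depended on the scaling, with 787 higher and 1042 lower after upper-quartile scaling and 695 and 1096 with library size alone. The sets did not overlap in 204 genes on the higher side, 1.21%, and in 155 on the lower side, 0.918%. The low-count filter asked for a minimum level in at least 5 libraries, the size of a treatment group. A gene could thus pass through the 6 hypoxia-high libraries alone but not through the 4 hypoxia-low ones. Counts on the higher and lower sides are therefore not on equal terms. A log2 difference above 0 was found for 47.2% of genes, and the median over all tested genes was -0.02. DESeq2, run as an alternative on the same counts, called 152 genes higher, 0.937% of the 16214 with an adjusted p, and 36 lower, 0.222%, and limma's voom called 0. In what follows, log2 differences are hypoxia-high minus hypoxia-low from edgeR with their standard error, CPM errors are SD, and "higher" or "lower" describes values, since no gene passed the edgeR test.

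**Figure D2:**
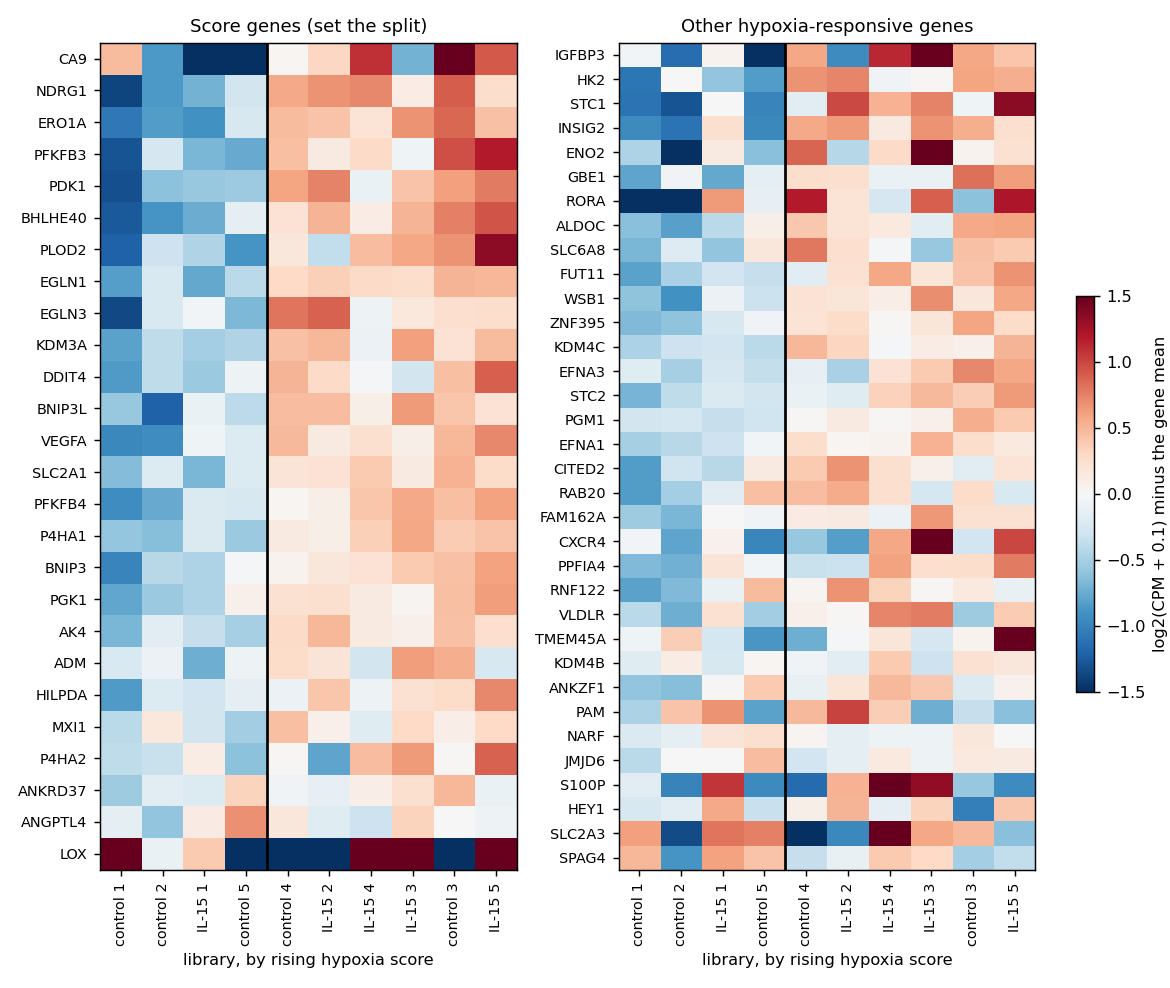
log2(CPM + 0.1) of each gene minus its mean over the 10 libraries, with libraries in order of rising score and a line between the hypoxia-low and hypoxia-high sets. The left panel holds the 26 score genes, which set the order, and the right panel the 34 tested members of a second list of hypoxia-responsive genes, of which 27 had a log2 difference above 0.

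A second list of genes known to respond to hypoxia, none of them in the score, mostly lay on the same side. Of its 34 tested members, 27 had a log2 difference above 0, against 47.2% of all genes, with a median of 0.54. An unadjusted p under 0.05 was reached by 17 members in the higher and 0 in the lower direction, against 6.02 and 4.7% of all genes tested. In 7 members the sets did not overlap, against 1.21% of all genes tested on the higher side. Members of this list share regulation with the score genes, so their direction is not independent of how the sets were made.

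STC1, a secreted glycoprotein hormone, measured 6.00, 5.28 and 6.56 CPM in control replicates 1, 2 and 5 and 13.0 CPM in IL-15 replicate 1, against 11.7, 20.4 and 33.7 CPM as lowest, median and highest of the hypoxia-high set. Only IL-15 replicate 1 reached into the hypoxia-high range, and the log2 difference was 0.99 ± 0.20 (edgeR adjusted p = 0.150). Its relative STC2 measured 62.5, 78.0 and 84.1 CPM in control replicates 1, 2 and 5 and 87.5 CPM in IL-15 replicate 1, and 89.9, 130.3 and 159 CPM in the hypoxia-high set. STC2 did not overlap and had a log2 difference of 0.58 ± 0.19.

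HK2, the inducible hexokinase that traps glucose in the cell, measured 55.0, 118 and 65.3 CPM in control replicates 1, 2 and 5 and 77.3 CPM in IL-15 replicate 1, and 113, 174 and 195 CPM (log2 difference 1.09 ± 0.25, edgeR adjusted p = 0.205). Control replicate 2 was the hypoxia-low library that overlapped. INSIG2, which holds back sterol synthesis at the endoplasmic reticulum, stood at 32.4, 29.3 and 32.2 CPM in control replicates 1, 2 and 5 and 74.4 CPM in IL-15 replicate 1, and at 69.2, 92.9 and 101 CPM in the hypoxia-high set. The 3 control values lay close together and IL-15 replicate 1 stood apart from them. The log2 difference of INSIG2, 0.98 ± 0.24 over all libraries, was 1.57 without that library. EFNA1, a membrane-bound ligand of Eph receptors, measured 127, 135 and 174 CPM in control replicates 1, 2 and 5 and 144 CPM in IL-15 replicate 1, and 182, 206 and 258 CPM, with no overlap and a log2 difference of 0.55 ± 0.16. The lipoprotein receptor gene VLDLR, at 29.4 to 57.3 CPM in hypoxia-low and 33.7, 57.6 and 83.6 CPM in hypoxia-high libraries, overlapped widely (0.32 ± 0.19) and was 0.15 apart without control replicate 4.

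In the HIF pathway itself, the gene of an alpha subunit stood higher. EPAS1, which encodes HIF-2α (ENSG00000116016, chromosome 2, 46293667 to 46386703 on hg38), measured 2.30, 2.75 and 1.71 CPM in control replicates 1, 2 and 5 and 0.549 CPM in IL-15 replicate 1. In the hypoxia-high set its lowest, median and highest values were 3.61, 5.29 and 10.4 CPM, from 596 counts over 6 libraries against 107 over 4. Every hypoxia-high library stood above every hypoxia-low one, and the fitted difference was 4.89-fold (log2 2.29 ± 0.40, edgeR adjusted p = 0.120). DESeq2 called it, with an adjusted p of 1.88e-05. The difference was 1.85 among control and 2.81 among IL-15 libraries, and leaving out each library in turn gave 1.91 to 2.60.

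HIF1A, the gene of HIF-1α, was far more abundant and overlapped widely, at 142, 134 and 117 CPM in control replicates 1, 2 and 5 and 94.4 CPM in IL-15 replicate 1, and 109, 142 and 183 CPM in the hypoxia-high set (log2 difference 0.27 ± 0.20). HIF-1α is controlled mostly at the level of protein, which RNA does not show. ARNT stood at 31.7 to 45.9 CPM in hypoxia-low and 43.4, 45.5 and 63.0 CPM in hypoxia-high libraries (0.26 ± 0.17). Its paralog ARNT2 was scarce and uneven, at 9.06, 1.13 and 1.92 CPM in control replicates 1, 2 and 5 and 16.1 CPM in IL-15 replicate 1, and 0.273, 2.04 and 5.16 CPM (-1.96 ± 0.79, edgeR adjusted p = 0.427).

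In the inhibitory arm of the pathway, VHL, HIF1AN and EGLN2 overlapped between the sets. EGLN1 and EGLN3, also of this arm, are score genes, and EGLN1 separated the sets as given above. VHL had a log2 difference of 0.02 ± 0.13, HIF1AN of -0.01 ± 0.14 and EGLN2, the constitutive prolyl hydroxylase gene, of -0.29 ± 0.22. The sign of VHL turned with upper-quartile or library-size scaling, at -0.02 for either, and that of HIF1AN turned under several alternatives, so no direction is given for them. Over all 13 tested pathway genes, 7 differences were above 0 and 6 below, with a median of 0.02.

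Enzymes of glycolysis that were not in the score were higher by a smaller step and overlapped throughout. They share regulation with score genes such as PGK1, so their direction is not independent of how the sets were made. Of 16 tested, 15 had a difference above 0, with a median of 0.37, and 0 separated the sets. An unadjusted p under 0.05 was reached by 4 on the higher side and 0 on the lower, against 6.02 and 4.7% of all genes tested. LDHA, which turns pyruvate into lactate, measured 869, 1222 and 1622 CPM in control replicates 1, 2 and 5 and 912 CPM in IL-15 replicate 1, and 1051, 1492 and 2246 CPM in the hypoxia-high set. Control replicate 5, the hypoxia-low library nearest the gap, lay above the hypoxia-high median (log2 difference 0.57 ± 0.24, edgeR adjusted p = 0.421). GAPDH showed the same overlap, at 2299, 2927 and 4003 CPM in control replicates 1, 2 and 5 and 2160.3 CPM in IL-15 replicate 1, and 2387, 3335 and 4164 CPM (0.41 ± 0.22). PKM, which makes pyruvate, was 0.47 ± 0.18 apart and PGAM1, a mutase of lower glycolysis, 0.48 ± 0.18.

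Mitochondrial genes differed by list. In the list of pyruvate and TCA cycle enzymes 16 of 19 differences were above 0 with a median of 0.13, led by SUCLA2 at 0.38 ± 0.16 and SUCLG2 at 0.33 ± 0.15, both subunits of succinyl-CoA ligase. Nuclear genes of the respiratory chain had 31 of 46 above 0, a median of 0.04 and 0 members at an unadjusted p under 0.05. The smallest p of that list belonged to NDUFS3, a complex I subunit (-0.30 ± 0.16). Of the 13 mitochondrially encoded mRNAs, 6 were above 0 and 7 below, with a median of -0.01, and MT-CO1, a catalytic subunit of cytochrome oxidase, stood at -0.04 ± 0.18. The nuclear respiratory count turned with upper-quartile scaling, at 21 of 46 with a median of -0.01. Counts of the respiratory lists moved with single libraries, to 20 of 46 for the nuclear genes without control replicate 1 and to 12 of 13 for the mitochondrial ones without control replicate 5.

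The genes with the smallest p on the higher side were FPR3, KIF13B, PPM1L, DUSP5, RIMKLA, EPAS1, PPP1R3B, DENND4C, TMEM106B, EDN2, ZNF292 and FAM13A, with edgeR adjusted p from 0.120 to 0.127. DESeq2 called all 12, against 0.937% of genes outside the score called higher. These 12 were picked by their p on the same counts, so the DESeq2 calls are not separate support. DUSP5, a nuclear phosphatase that switches off ERK (ENSG00000138166, chromosome 10, 110497838 to 110511544), measured 2.68, 3.87 and 3.35 CPM in control replicates 1, 2 and 5 and 1.79 CPM in IL-15 replicate 1. The hypoxia-high set gave 6.16, 13.3 and 51.6 CPM, the highest being control replicate 3. No library overlapped, and the fitted difference was 8.09-fold (log2 3.02 ± 0.48), or 2.19 on the log2 scale without control replicate 3.

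FAM13A measured 72.7, 132 and 142 CPM in control replicates 1, 2 and 5 and 83.4 CPM in IL-15 replicate 1, and 125, 188 and 373 CPM in the hypoxia-high set, again with control replicate 3 the highest. In the hypoxia-high set IL-15 replicate 4, at 125 CPM, lay under control replicates 2 and 5, and the log2 difference was 1.25 ± 0.23 (edgeR adjusted p = 0.127). When the score itself replaced the sets in the fit, FAM13A was among 4 genes that passed edgeR, with a slope of 1.64 per unit of score (adjusted p = 0.0436). The others were TERT, PIAS2 and AC092535.4, the last pair named after their values were seen. Because the score made the sets, this fit is not separate support for the differences. With the score of 4 markers no gene outside the score passed. RIMKLA, which makes the dipeptide N-acetylaspartylglutamate, separated the sets with little spread, at 48.3, 37.0 and 44.3 CPM in control replicates 1, 2 and 5 and 59.3 CPM in IL-15 replicate 1, and 81.3, 86.6 and 101 CPM (log2 difference 0.83 ± 0.14). KIF13B, a kinesin motor, also separated them, at 23.9, 24.2 and 32.1 CPM in control replicates 1, 2 and 5 and 17.7 CPM in IL-15 replicate 1, and 32.2, 37.8 and 51.6 CPM (0.96 ± 0.15).

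PPP1R3B, which targets a phosphatase to glycogen, measured 53.7, 42.1 and 58.5 CPM in control replicates 1, 2 and 5 and 67.9 CPM in IL-15 replicate 1, and 92.9, 111 and 142 CPM, without overlap (0.98 ± 0.18). EDN2, the vasoconstrictor peptide endothelin 2, stood at 5.93, 4.79 and 5.13 CPM in control replicates 1, 2 and 5 and 3.64 CPM in IL-15 replicate 1, and 5.43, 10.9 and 21.8 CPM (1.53 ± 0.28). It overlapped because IL-15 replicate 5, the library with the highest score, was the lowest of its set at 5.43 CPM. FPR3, a formyl peptide receptor of myeloid cells, had 154 counts over 6 hypoxia-high and 18 over 4 hypoxia-low libraries. Its lowest hypoxia-high value, 0.4973 CPM, was next to the highest hypoxia-low one, 0.4929, and its fitted log2 difference was 3.19 ± 0.49. FPR3 passed the filter on low counts through hypoxia-high libraries alone, so a gene at its level had to differ to be tested, and its place among these 12 supports nothing further. Of the remaining genes, TMEM106B, which encodes a lysosomal membrane protein (0.81 ± 0.15), DENND4C, an exchange factor for Rab GTPases (0.91 ± 0.17), and the zinc finger gene ZNF292 (0.91 ± 0.17) separated the sets. PPM1L, a protein phosphatase gene, did not (0.85 ± 0.14).

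**Figure D3:**
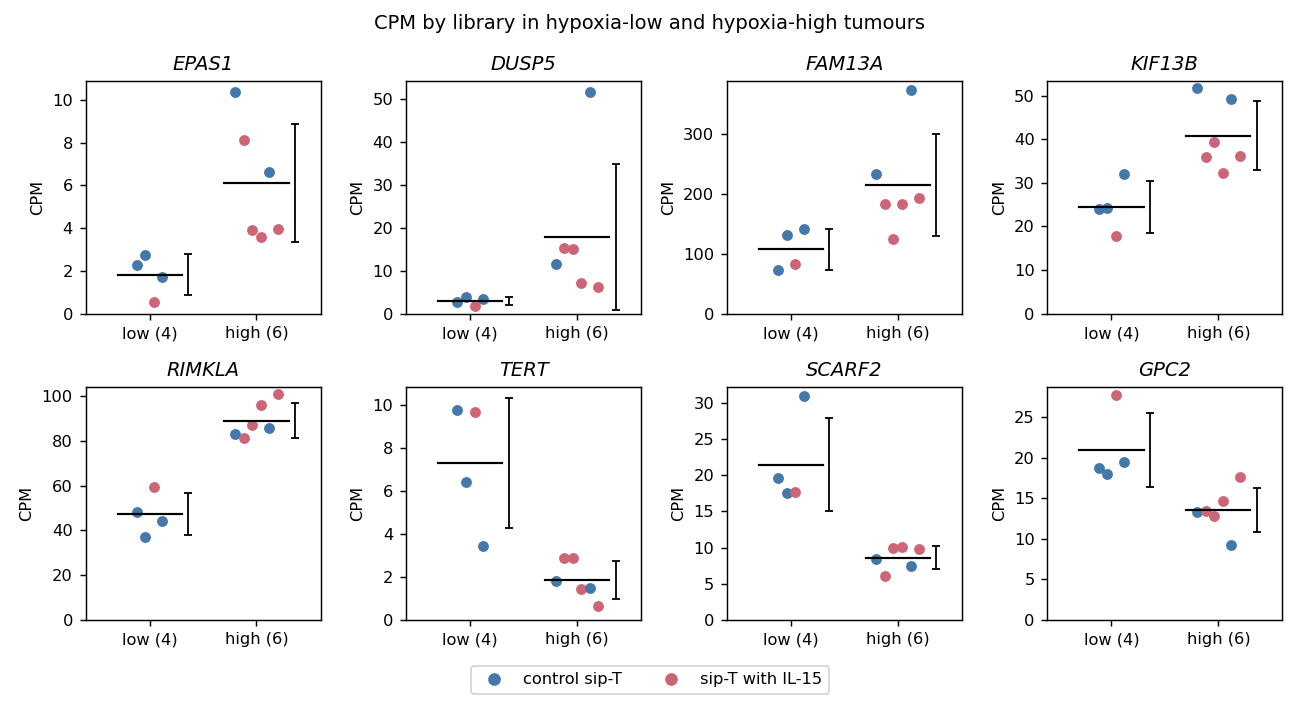
CPM of 8 genes in each library of the hypoxia-low (4) and hypoxia-high (6) sets, coloured by treatment, with the mean as a horizontal line and the SD as a bar. EPAS1, DUSP5, KIF13B and RIMKLA lie higher and TERT, SCARF2 and GPC2 lower in hypoxia-high libraries without overlap, and FAM13A overlaps through IL-15 replicate 4.

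On the lower side the smallest p belonged to SCARF2, TERT, AADAT, SPEF1, GPC2, NUDT8, SPACA6, IGSF9, HDAC7, TUB, FBLL1 and LIME1, with edgeR adjusted p from 0.127 to 0.254. DESeq2 called all 12, against 0.222% of genes outside the score called lower, and again this is not separate support. SCARF2, a scavenger receptor family member (ENSG00000244486, chromosome 22, 20424815 to 20437826), measured 19.6, 17.6 and 30.9 CPM in control replicates 1, 2 and 5 and 17.7 CPM in IL-15 replicate 1, and 6.05, 9.05 and 10.1 CPM in the hypoxia-high set (log2 difference -1.31 ± 0.25). The sets were well apart, with a lowest hypoxia-low value of 17.6 CPM against a highest hypoxia-high value of 10.1.

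TERT, the catalytic subunit of telomerase (ENSG00000164362, chromosome 5, 1253147 to 1295069), stood at 9.76, 6.41 and 3.42 CPM in control replicates 1, 2 and 5 and 9.68 CPM in IL-15 replicate 1. In the hypoxia-high set it measured 0.660, 1.65 and 2.86 CPM, from 179 counts over 6 libraries against 433 over 4. The sets did not overlap, the log2 difference was -2.12 ± 0.42 (edgeR adjusted p = 0.138), and the library lowest in TERT, IL-15 replicate 5, was the one with the highest score. Fitted against the score, TERT had a slope of -2.97 per unit and passed edgeR (adjusted p = 0.0249). That fit uses the values that made the sets, so it is not separate support, and TERT did not pass with the score of 4 markers.

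GPC2, a cell-surface proteoglycan, measured 18.7, 18.0 and 19.5 CPM in control replicates 1, 2 and 5 and 27.7 CPM in IL-15 replicate 1, and 9.21, 13.4 and 17.6 CPM (-0.81 ± 0.18). SPACA6, known from sperm and egg fusion, stood at 7.02, 6.13 and 11.2 CPM in control replicates 1, 2 and 5 and 9.48 CPM in IL-15 replicate 1, and 2.67, 3.73 and 5.43 CPM (-1.25 ± 0.29), and TUB, a membrane-bound transcription regulator, at 13.6, 6.76 and 9.55 CPM in control replicates 1, 2 and 5 and 14.4 CPM in IL-15 replicate 1, and 3.45, 5.30 and 6.48 CPM (-1.12 ± 0.28). These 3 genes did not overlap either. AADAT, an aminotransferase of lysine and kynurenine breakdown, was uniform in the hypoxia-low set, at 114 to 139 CPM, and spread from 41.7 to 126 CPM in the hypoxia-high set (-1.08 ± 0.22). HDAC7, a class II histone deacetylase gene, differed least, at -0.51 ± 0.12. SPEF1 of motile cilia (-1.67 ± 0.35), the Nudix hydrolase gene NUDT8 (-0.83 ± 0.18), the adhesion gene IGSF9 (-1.16 ± 0.28), FBLL1, a fibrillarin-like gene (-1.47 ± 0.36), and LIME1, an adaptor of lymphocyte signalling (-1.29 ± 0.33), overlapped between the sets.

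**Figure D4:**
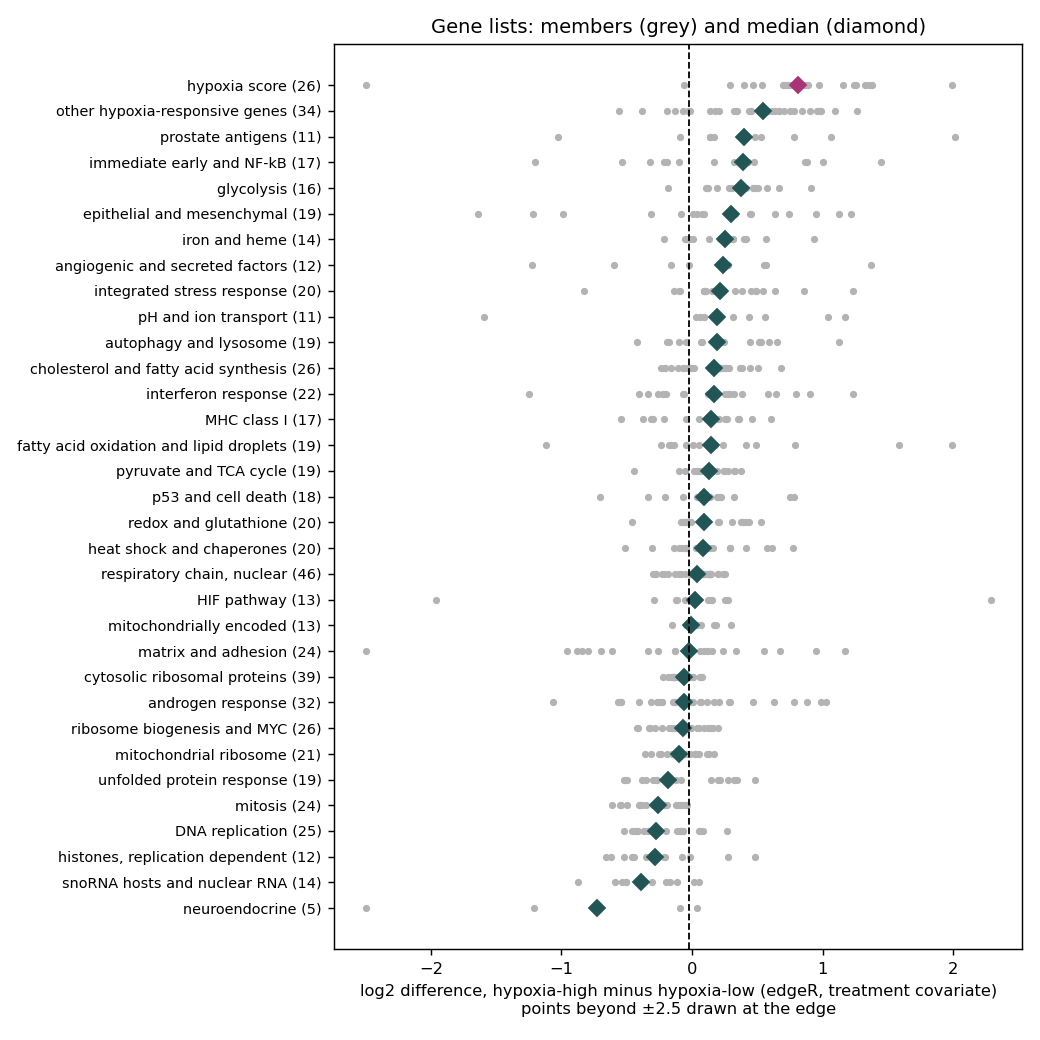
log2 difference, hypoxia-high minus hypoxia-low, of the tested members of each gene list (grey points, number in parentheses) with the list median (diamond) and the median over all tested genes as a dashed line. The score genes, in purple, set the sets, the second hypoxia list has a median of 0.54, and snoRNA host genes and the 5 tested neuroendocrine genes lie lowest in this fit, at -0.39 and -0.73.

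Among gene groups outside hypoxia, the list of epithelial and mesenchymal genes had 14 of 19 above 0 and a median of 0.30. Its members at an unadjusted p under 0.05 were 5 on the higher side and 0 on the lower, against 6.02 and 4.7% of all genes tested. Without control replicate 4 the list median was 0.13. The 3 members with the smallest p encode junction proteins. DSP, which anchors desmosomes (ENSG00000096696, chromosome 6, 7541575 to 7586717), measured 129.8, 210.1 and 213 CPM in control replicates 1, 2 and 5 and 201 CPM in IL-15 replicate 1, and 217, 374 and 528 CPM in the hypoxia-high set. No library overlapped, although IL-15 replicate 4 at 217 CPM lay next to the hypoxia-low values (log2 difference 1.12 ± 0.23, edgeR adjusted p = 0.141). OCLN, a tight junction protein, measured 58.1, 48.6 and 48.9 CPM in control replicates 1, 2 and 5 and 42.6 CPM in IL-15 replicate 1, and 45.8, 86.0 and 199 CPM (1.22 ± 0.25), with control replicate 3 the highest and IL-15 replicate 5 inside the hypoxia-low range. CLDN4, another tight junction gene, overlapped more (0.74 ± 0.24) and was at 0.42 without control replicate 3. The difference of DSP was 1.45 among control and 0.67 among IL-15 libraries, where 1 library makes up the hypoxia-low side and the difference between treatments passed no test.

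Matrix genes went both ways, 11 of 24 above 0 with a median of -0.02. FN1, which encodes fibronectin, measured 287, 466 and 326 CPM in control replicates 1, 2 and 5 and 453 CPM in IL-15 replicate 1, and 422, 688 and 1322 CPM in the hypoxia-high set. Its 2 highest libraries were control replicates 3 and 4, IL-15 replicates 3 and 5 overlapped with the hypoxia-low set, and the log2 difference was 1.85 among control and 0.28 among IL-15 libraries (1.17 ± 0.29 over all, edgeR adjusted p = 0.255). Without IL-15 replicate 1 it was 1.82. COL3A1, a fibrillar collagen, ran the other way, at 13.1, 16.1 and 15.5 CPM in control replicates 1, 2 and 5 and 15.6 CPM in IL-15 replicate 1, and 5.36, 9.65 and 11.1 CPM, without overlap (-0.88 ± 0.25). COL3A1 is also a fibroblast marker, and the fibroblast and pericyte markers are given below.

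Genes of autophagy and lysosomes had 14 of 19 above 0 and a median of 0.19. At an unadjusted p under 0.05 stood 6 members on the higher and 0 on the lower side, against 6.02 and 4.7% of all genes tested. MAP1LC3B, the LC3 protein that coats autophagosomes, was nearly uniform in the hypoxia-low set, at 37.3, 38.2 and 38.3 CPM in control replicates 1, 2 and 5 and 37.3 CPM in IL-15 replicate 1, and measured 43.7, 51.3 and 54.4 CPM in the hypoxia-high set. LAMP2, a lysosomal membrane protein, measured 156, 165 and 137 CPM in control replicates 1, 2 and 5 and 161 CPM in IL-15 replicate 1, and 167, 224 and 251 CPM. Neither gene overlapped, with log2 differences of 0.45 ± 0.12 and 0.52 ± 0.15, and leaving out each library in turn moved them only within 0.42 to 0.48 and 0.48 to 0.60. SQSTM1, the cargo receptor p62, stood at 321 to 455 CPM against 417, 499 and 804 CPM and overlapped (0.65 ± 0.17, edgeR adjusted p = 0.258).

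Stress genes differed in part. Of 20 tested genes of the integrated stress response 16 were above 0, with a median of 0.21, led by the transcription factor gene ATF3 (1.23 ± 0.38) and by GDF15, a stress cytokine gene (0.85 ± 0.36). ATF3 measured 26.7, 32.0 and 59.6 CPM in control replicates 1, 2 and 5 and 27.0 CPM in IL-15 replicate 1, and 31.4, 75.0 and 112 CPM, so control replicates 2 and 5 lay inside the hypoxia-high range. The list of unfolded protein response genes had 7 of 19 above 0 and a median of -0.18. Heat shock and chaperone genes had 12 of 20 above 0. HSPA1B, an inducible HSP70 gene whose near-identical neighbour HSPA1A can share its reads, measured 33.3, 50.0 and 50.8 CPM in control replicates 1, 2 and 5 and 57.5 CPM in IL-15 replicate 1, and 65.2, 70.0 and 125 CPM (0.78 ± 0.22), whereas HSP90AA1, the inducible HSP90 gene, had a difference of -0.51 ± 0.21. DNAJB1, an HSP40 cochaperone gene, separated the sets at 0.42 ± 0.16. Without control replicate 4 the differences of HSPA1B and DNAJB1 were 0.44 and 0.23, and that of DNAJB1 was 0.63 without IL-15 replicate 1.

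Immediate early and NF-κB genes had 11 of 17 above 0 with a median of 0.39, which was 0.05 without control replicate 3. DUSP1, a phosphatase induced by stress and growth factors, measured 55.1, 44.5 and 80.0 CPM in control replicates 1, 2 and 5 and 58.1 CPM in IL-15 replicate 1, and 75.2, 98.6 and 130.5 CPM (0.86 ± 0.20), with control replicate 5 above the lowest hypoxia-high library. BIRC3, an inhibitor of apoptosis induced by NF-κB, rested on control replicate 3 at 42.3 CPM, the others of its set lying between 6.84 and 11.9. Its difference, 1.45 ± 0.46 over all libraries, was 0.59 without that library and 2.07 without IL-15 replicate 1. ATP1B1, a subunit of the sodium pump, separated the sets at 33.0, 28.2 and 23.5 CPM in control replicates 1, 2 and 5 and 31.3 CPM in IL-15 replicate 1, and 36.1, 48.3 and 126 CPM, with the same library highest at 126 CPM (1.17 ± 0.30, and 0.62 without it). The pH and ion transport list that holds ATP1B1 had 10 of 11 above 0, with a median of 0.19.

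Prostate lineage genes were read in separate lists. The androgen response list had 14 of 32 above 0 and a median of -0.06. KLK3 stood at -0.14 ± 0.23 and KLK2, a related kallikrein gene, at -0.56 ± 0.30, both with overlap, and KLK2 was at -0.33 without control replicate 5. TSC22D1 and KLF4, transcription regulator genes of that list, separated the sets. TSC22D1 measured 314, 330.1 and 459.7 CPM in control replicates 1, 2 and 5 and 426 CPM in IL-15 replicate 1, and 513, 614 and 849.8 CPM (0.78 ± 0.18). KLF4 measured 23.6, 16.9 and 31.6 CPM in control replicates 1, 2 and 5 and 27.8 CPM in IL-15 replicate 1, and 34.5, 39.1 and 50.5 CPM (0.62 ± 0.19). Prostate antigens outside that list had 9 of 11 above 0 and a median of 0.40, which stayed above 0 in each alternative run, at 0.13 to 0.45. In that list 1 gene reached an unadjusted p under 0.05 in each direction, against 6.02% higher and 4.7% lower of all genes tested, and 0 separated the sets. Among its targets of prostate cancer therapy, ACPP, which encodes the prostatic acid phosphatase used as the sip-T antigen, ranged over 87.5, 149 and 366 CPM in the hypoxia-high set against 68.6 to 166 CPM in the hypoxia-low set (0.48 ± 0.43, and 0.25 to 0.74 with libraries left out, at 0.25 without IL-15 replicate 3). FOLH1, the gene of prostate-specific membrane antigen, was 0.14 ± 0.18 apart, with a sign that turned without the treatment covariate (-0.15). In the neuroendocrine list 4 of 5 tested genes were below 0, with 2 at an unadjusted p under 0.05 on that side, against 4.7% of all genes tested. Its median of -0.73 was -0.26 without control replicate 1. The list holds 16 genes, most of them too scarce to test. The 2 genes at that p, DDC and SYP, were scarce too, with means of 2.17 and 2.38 CPM in hypoxia-high against 2.85 and 3.65 CPM in hypoxia-low libraries.

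Proliferation genes lay lower in the full set of libraries. All 24 tested mitosis genes had a difference below 0, with a median of -0.26, 2 at an unadjusted p under 0.05 and 1 without overlap. Of all genes tested, 4.7% were lower at that p and 0.918% were lower without overlap. CCNB1, the mitotic cyclin B1, measured 142, 154 and 169.9 CPM in control replicates 1, 2 and 5 and 149 CPM in IL-15 replicate 1, and 71.0, 112 and 140.3 CPM, the highest hypoxia-high library being just under the lowest hypoxia-low one (-0.50 ± 0.21). UBE2C, a ubiquitin-conjugating enzyme of mitotic exit, measured 51.2, 48.2 and 67.6 CPM in control replicates 1, 2 and 5 and 54.5 CPM in IL-15 replicate 1, and 21.6, 35.7 and 50.0 CPM (-0.61 ± 0.24). Without control replicate 4 these differences were -0.28 and -0.37, and without control replicate 3 they were -0.75 and -0.95. MKI67, the gene of the Ki-67 antigen, differed by -0.09 ± 0.22 and changed sign under several alternatives. The count depended on control replicate 4, without which 11 of 24 genes were above 0 and the median was -0.04. Replication genes had 4 of 25 above 0 and a median of -0.28, with MCM7, part of the replicative helicase, at -0.52 ± 0.22. Without control replicate 4, 8 of 25 were above 0.

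Ribosomal protein genes were below 0 in 34 of 39 cases, with a median of only -0.06 and 0 members at an unadjusted p under 0.05, and 28 of 39 were above 0 without control replicate 5. RPLP0 differed by 0.06 ± 0.19 and MYC, a driver of ribosome synthesis, by 0.16 ± 0.28, both signs turning without the treatment covariate. Ribosome biogenesis genes had 7 of 26 above 0, but 13 of 26 without control replicate 5, with NOP56, a box C/D snoRNP protein gene, at -0.42 ± 0.20. Host genes of small nucleolar RNAs and nuclear RNAs were lower as a group, with 2 of 14 above 0 and a median of -0.39. At an unadjusted p under 0.05 there were 5 on the lower side and 0 on the higher, against 4.7 and 6.02% of all genes tested. Noncoding classes lay lower more widely, with 7.46% of antisense transcripts and 7.79% of lincRNAs lower at that p and 2.19 and 2.27% higher. SNHG12 measured 35.6, 36.1 and 51.1 CPM in control replicates 1, 2 and 5 and 28.9 CPM in IL-15 replicate 1, and 13.1, 21.6 and 32.3 CPM (-0.88 ± 0.28), and GAS5, a growth-arrest transcript, 236, 272 and 308 CPM in control replicates 1, 2 and 5 and 211 CPM in IL-15 replicate 1, and 160.2, 178 and 218 CPM (-0.50 ± 0.17). Both overlapped through IL-15 libraries, and the difference of GAS5 was -0.74 among control and -0.13 among IL-15 libraries.

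Lipid genes had medians of 0.17 for synthesis, with 15 of 26 above 0, and 0.15 for oxidation and lipid droplets, with 13 of 19. The median of synthesis genes was 0.05 without control replicate 3. PPARA, a nuclear receptor of fatty acid use, measured 20.8, 28.4 and 18.8 CPM in control replicates 1, 2 and 5 and 11.4 CPM in IL-15 replicate 1, and 20.8, 25.5 and 41.2 CPM (0.79 ± 0.20). PLIN5, a lipid droplet coat protein, was scarce, at 0.574, 0.211 and 1.07 CPM in control replicates 1, 2 and 5 and 0.206 CPM in IL-15 replicate 1, and 0.807, 1.56 and 2.32 CPM (1.99 ± 0.51, edgeR adjusted p = 0.254).

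Transcripts of other human cells were measured beside these groups, and their part in the differences was not tested. Fewer cells of a type and less RNA per cell cannot be told apart in bulk RNA. Summed T cell markers ranged from 4.87 to 31.7 CPM in hypoxia-high and from 5.99 to 52.3 CPM in hypoxia-low libraries, and NK and cytotoxic markers from 1.62 to 29.7 and from 3.03 to 47.0 CPM. The highest value of each was that of a hypoxia-low library. Of 16 myeloid markers, 3 were abundant enough to test, and the summed level was 3.89 to 6.76 CPM against 3.44 to 4.46 CPM. The macrophage genes C1QA, C1QB, C1QC and MARCO had 2, 7, 2 and 4 counts over the hypoxia-high set and 0 each over the hypoxia-low set, while VSIG4 and S100A8 had 0 over the hypoxia-high and 2 and 1 over the hypoxia-low set. Of the 3 tested members CSF1R was above 0 (0.94), and CD14 (-0.91) and FCGR1A (-0.17) were below. Of these 3, only CSF1R had an unadjusted edgeR p under 0.05. B and plasma cell markers summed to 0.880 to 11.1 CPM against 0.634 to 2.21 CPM, with medians of 1.37 and 0.866. IGKC and IGHG1 had 72 and 69 counts over the hypoxia-high set and 0 and 4 over the hypoxia-low set. CD79B, PAX5 and TNFRSF17 went the other way, at 2, 6 and 6 counts against 3, 11 and 8. Erythroid markers, 94.0% of them CA1, summed to 0.373 to 22.1 CPM against 0.0687 to 1.69 CPM, with medians of 0.505 and 1.08. Endothelial markers summed to 32.1 to 64.7 CPM against 40.9 to 84.5 CPM, with 4 of 4 tested genes below 0 and KDR, a defining receptor, at 0 counts in every library. Fibroblast and pericyte markers summed to 27.6 to 161 CPM against 52.3 to 81.2 CPM, with COL1A2 at 5 and 1 counts and POSTN at 0. The high end of that range came from RGS5, a pericyte gene at 3.08 to 123 CPM in hypoxia-high and 4.95 to 20.6 CPM in hypoxia-low libraries, whereas COL1A1 (-0.70) and COL3A1 were below 0. Vessels and stroma of the host are mouse cells, whereas the tables hold human genes, and the handling of mouse reads is unstated in the labels and files.

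**Figure D5:**
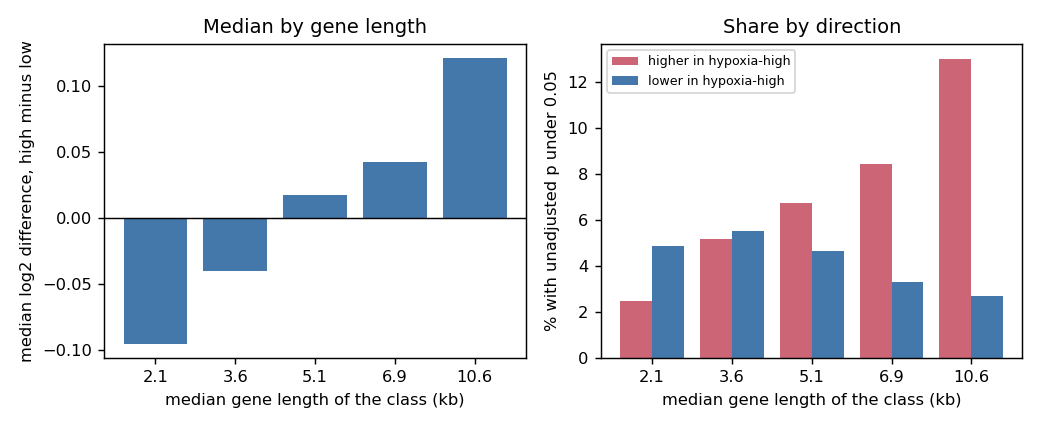
Protein-coding genes in 5 equal classes by gene length, with the median length of each class in kb on the horizontal axis. The left panel shows the median log2 difference, which goes from -0.10 in the shortest to 0.12 in the longest class, and the right panel the share of genes at an unadjusted p under 0.05 in each direction.

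The side on which a gene lay also went with its length and class. Over 5 equal classes of protein-coding genes by rising length, the median log2 difference was -0.10, -0.04, 0.02, 0.04 and 0.12. In the longest class 13.01% of genes were higher at an unadjusted p under 0.05 and 2.67% lower, while in the shortest class the shares were 2.48 and 4.88%. Antisense transcripts had a median of -0.20 and lincRNAs of -0.18. Of the 12 genes named on the higher side, KIF13B had 11112 bases in the deposited annotation, PPM1L 12447, ZNF292 13128, FAM13A 13215 and TMEM106B 13867. All of these lay above the median of the longest class, 10628.5 bases. The rest of those 12 were shorter, from EDN2 with 1639 to RIMKLA with 8981. The 12 genes named on the lower side went from NUDT8 with 1475 to HDAC7 with 9928 bases. Whether length, RNA quality or library preparation had a part in the gene groups above was not tested.

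By chromosome, protein-coding genes of chromosome 13 had the highest median, 0.26 over 201 genes, followed by chromosome 18 with 0.16 over 182. Chromosome 19 had the lowest, -0.14 over 990 genes, with 27.7% of its genes above 0. After subtraction of the median of each gene's length class these values were 0.22, 0.13 and -0.14. DNA copy number was not measured in the data used here. SUCLA2 and TSC22D1, described above, lie on chromosome 13.

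Treatment itself, in the same fit, gave 0 genes at an edgeR adjusted p of 0.05, with a smallest adjusted p of 0.226 and 1379 genes at an unadjusted p under 0.05. The difference between the sets was also compared between treatments. As an interaction of set and treatment, 0 genes passed edgeR (smallest adjusted p 1.00, with 317 at an unadjusted p under 0.05), and DESeq2 called 6. A single hypoxia-low library, IL-15 replicate 1, carries the IL-15 side of this comparison, so its error rests on the spread of the other libraries.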

How the data were processed

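Sequencing of RNA from 10 tumours ran on an Illumina instrument, per the labels. Tools listed in the submitters' processing notes, without roles, are fastp, HISAT2 2.0.5, GATK 4.1.1.0, featureCounts 1.5.0-p3 and DESeq2 1.20.0, with build hg38. Not given in the sources used here were strandedness, annotation release and the handling of mouse reads. The organism label is mouse, but the tables list human Ensembl genes. The deposited count table holds whole-number read counts per gene. The deposited FPKM values, which the authors computed, served only as an alternative, as log2(FPKM + 0.1) and log2(FPKM + 1).

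The hypoxia score is the mean log2 CPM (prior count 2) of 26 genes. From 58735 genes, of which 17801 had no count, filterByExpr (minimum count 10) kept 16913, and 16887 lay outside the score. Counts were scaled by TMM and fitted with edgeR 4.0.16 (quasi-likelihood, robust, R 4.3.3) on hypoxia set and treatment, with Benjamini-Hochberg adjustment over all genes at 0.05. The fit was tested on simulated counts. Alternatives covered scaling, filters, DESeq2 1.42.0, limma 3.58.1, FPKM, the covariate, the score as a continuous term, a replicate block and each library left out. Every one of the 45 pairs of libraries differed by more than sampling noise, with a lowest chi-square of 20.4 per degree of freedom.

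The members, the 32 gene lists and the 11 marker lists were chosen with earlier results of these data known. Named genes are the 12 protein-coding genes per direction that had the smallest p (mean CPM at or above 1), the 3 members of each list with the smallest p where described, the score genes and a fixed set. XIST and Y-linked genes are not reported. Of the list symbols, 1 was not found and 2 stood in several rows of the table. A floor of 3 counts covers counting error only.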

Additional observations from a re-analysis of the deposited data

Results flagged for a closer look

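Within the hypoxia-high and hypoxia-low sets of each gene described, the highest or lowest library was compared with the others on log2 CPM. Its gap to the nearest other library was divided by the range of the set. A library was singled out where this ratio was above Dixon's 95% critical value for the size of its set. This held in 11 of 208 sets examined, and chance alone gives about 1 in 20, so single cases carry little weight. In the hypoxia-high set control replicate 3 was the highest in FOLH1 at 901 CPM, in ATP1B1 at 126 CPM and in BIRC3 at 42.3 CPM, and the lowest in IGSF9 at 12.6 CPM. In the hypoxia-low set control replicate 1 was the lowest in PKM at 996 CPM, in DSP at 129.8 CPM and in the score gene PDK1 at 51.5 CPM. The other cases were INSIG2 at 74.4 CPM in IL-15 replicate 1, MKI67 at 178 CPM in control replicate 2, DNAJB1 at 169 CPM in control replicate 4 and MAP1LC3B at 43.7 CPM in IL-15 replicate 4, the last being the lowest of its set and the others the highest.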

How the results depend on the processing

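In edgeR, 0 genes outside the score passed in either direction under every scaling, with a minimum mean of 1 CPM, with each library left out, without the treatment covariate, in control libraries alone, with the score of 4 markers, in limma voom and on FPKM. Without the low-count filter edgeR called 404 genes higher, 199 lower and 664 by treatment, and the cause was not tested. DESeq2 called 152 higher, 36 lower, 68 by treatment and 6 in the interaction. The 26-gene score as a continuous term gave 2 in each direction. Leaving out each library gave 0 to 2 genes by treatment, with 2 without control replicate 4 and 1 without IL-15 replicate 2. Replicate numbers did not pair the libraries: same-numbered deviations correlated at 0.26, 0.01, -0.17, -0.22 and -0.08 for numbers 1 to 5, and 1 of the 5 control libraries correlated best with its own number. With a replicate block 0 genes passed (smallest adjusted p 1.00), and 7 of 24 mitosis, 14 of 26 ribosome biogenesis, 11 of 19 epithelial and mesenchymal and 3 of 5 neuroendocrine genes were above 0, the last with a median of 0.12. Ribosomal protein genes turned with the block, to 35 of 39 above 0 from 5 of 39, and replication genes went to 11 of 25 from 4 of 25. Fat and sterol synthesis genes then had a median of 0.44.

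Of the log2 differences of named genes under the alternatives, 1760 kept direction and side of the threshold, 82 passed it and 30 turned sign, all in small differences. VHL was -0.020 with upper-quartile scaling, -0.024 with library size alone, -0.077 with the block and -0.045 to 0.12 with libraries left out. HIF1AN was 0.018 without the filter, 0.0070 and 0.0054 on FPKM, 0.0038 and 0.062 with the scores of 26 and 4 genes, 0.093 in control libraries and -0.11 to 0.083 with libraries left out. RPLP0 was -0.11 without the covariate, -0.085 in control libraries and -0.10 to 0.15 with libraries left out. MYC was -0.0096, -0.15 and -0.17 to 0.38 in the same settings. FOLH1 was -0.15 without the covariate, -0.14 with the block and -2.33e-04 to 0.31 with libraries left out. VLDLR was -0.041 with the block. MKI67 was 0.080 with the block, 0.051 and 0.12 with the scores of 26 and 4 genes and -0.41 to 0.14 with libraries left out. MT-CO1 was -0.091 to 0.020 with libraries left out. Depth limited FPR3, PLIN5, CA9, the neuroendocrine genes DDC and SYP and the leukocyte markers, which had few counts.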
